A study of Drosophila melanogaster with 40 samples.

Results

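The genes described here make, store, burn and carry lipids. They were taken by symbol from a fixed list of 34 genes, of which 32 had a row in the table of counts of 17784 features, and they were grouped as synthesis, storage and lipolysis, beta-oxidation, and lipid carriers with their receptors. FASN1 and FASN3 were not analysed here, and 31 members had enough counts to be tested. The samples are pools of 13 to 21 heads of WT male Drosophila melanogaster in an Oregon Red background, all 10 days old. They fall into 6 groups, set by how long the flies were fed and by what they were fed. Acute feeding lasted 24 h and chronic feeding 10 days. The food held DMSO (0.2%) as the vehicle, 10 µM 2-AAPA, an inhibitor of glutathione reductase and thioredoxin reductase, or 100 µM mitoQ, an antioxidant directed to mitochondria. The acute groups held 7 (DMSO), 6 (2-AAPA) and 7 (mitoQ) pools, and the chronic groups in the same order 6, 7 and 6. Acute 2-AAPA replicate 6 was the pool of 13 heads, and the other pools held 19 to 21. By the study's methods, acutely fed flies lived on cornmeal-molasses food until the last day and chronically fed flies lived on instant medium throughout, so the duration of feeding and the food cannot be told apart. No group was fed EtOH alone, the solvent that the study lists for mitoQ, so a difference between mitoQ and DMSO cannot be told apart from one between solvents. The labels do not say whether the pools of a group were reared separately, so p-values measure only the spread between these pools, part of which may be technical.

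Flies build fatty acids from acetyl-CoA, join them to glycerol as triacylglycerol, and keep them in lipid droplets, mainly in the fat body. Lipases free the fatty acids again, carnitine carries them into mitochondria, and beta-oxidation shortens them to acetyl-CoA. Lipids travel between organs on lipophorin, a lipoprotein that the fat body makes and that reaches the brain, where glia store droplets and the lipocalins GLaz and NLaz carry small lipids. A pool of heads holds brain, retina, muscle and the fat body of the head together, so that fewer cells of a type and less RNA per cell cannot be told apart.

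A seventh chronic DMSO pool, replicate 7, was left out. It held counts in 16259 features against 13911 to 14459 in the 39 others, and its summed level of 7 male reproductive tract markers was 783 CPM against at most 0.702 CPM. The 39 pools had total counts of 24318573 to 30104079. Ribosomal RNA genes took 0.262% to 8.89% of the counts and mitochondrial genes 0.0444% to 4.37%. The pools that stood apart were acute DMSO replicate 5 (the lowest scaling factor, 0.803), chronic DMSO replicate 4 (the lowest ribosomal RNA share, 0.262%) and chronic 2-AAPA replicate 6 (the highest mitochondrial share, 4.37%). Markers of neurons, glia and photoreceptors were well above 0 in every pool, with summed levels of at least 1271, 881 and 58170 CPM. Levels below are CPM, each count divided by the library total scaled by TMM. Where genes are compared with each other the level is divided by feature length (CPM per kb).

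Over the 39 pools the members differed widely in level. Desat1, the desaturase that makes monounsaturated fatty acids, had the highest median at 534 CPM per kb, followed by AcCoAS, which makes acetyl-CoA from acetate, at 230. Lsd-1, a perilipin that coats lipid droplets, followed at 161 CPM per kb, close to apolpp, the apolipoprotein of lipophorin, at 158 and Mcad, the medium-chain acyl-CoA dehydrogenase, at 155. The ranges of these last 3 genes overlapped with each other and with that of AcCoAS over the pools, so the order below Desat1 is not resolved. The highest apolpp value, 345 CPM per kb, also passed the lowest of Desat1, 326. At the other end stood Agpat1, an acyltransferase of phosphatidic acid synthesis, with a median of 6.28 CPM per kb, and the fatty acid synthase gene FASN2 with 0.760. The lipase gene mag, known from the fly gut, had at most 5 counts in any of the 39 pools and could not be tested. Gpat4, a glycerol-3-phosphate acyltransferase, was the steadiest, with a highest value 1.41 times the lowest.

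**Figure D1:**
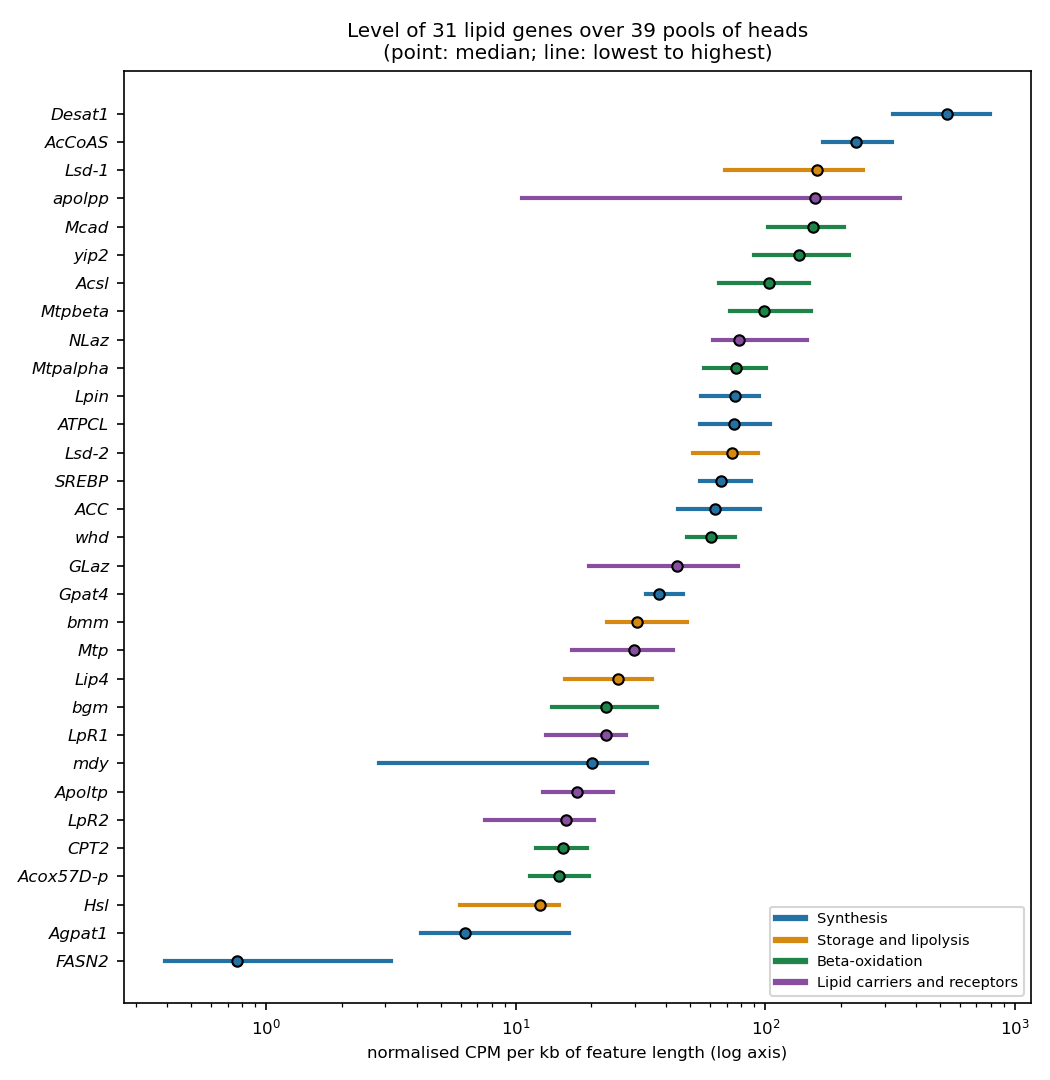
Level of 31 lipid genes over 39 pools of heads, as normalised CPM per kb of feature length on a log axis. Points are medians and lines run from the lowest to the highest pool, coloured by class, and apolpp and mdy have the longest lines; mag is not drawn because some pools held no count.

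The first comparison asked whether these genes differed between chronic and acute feeding, with the drug as a second term in the model. Of the 31 members 6 fell, none rose, and 25 did not pass the test. Over all 11452 features tested, 9.26% were called, 3.4% higher and 5.86% lower with chronic feeding, against 19.4% of the members. The median log2 fold change was -0.10 over the members and 0.01 over all features, and 18 of 31 members were negative, against 5292 of 11452 features. The genes that fell were the triglyceride transfer gene Mtp and the lipocalin gene GLaz among the carriers, yip2, Acox57D-p and CPT2 in beta-oxidation, and the perilipin gene Lsd-1. The smallest fall, in CPT2, was 1.10-fold and the largest, in Mtp, 1.39-fold. Ranges of the 20 acute and 19 chronic pools overlapped for every member. Over all features 0.0699% did not overlap.

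**Figure D2:**
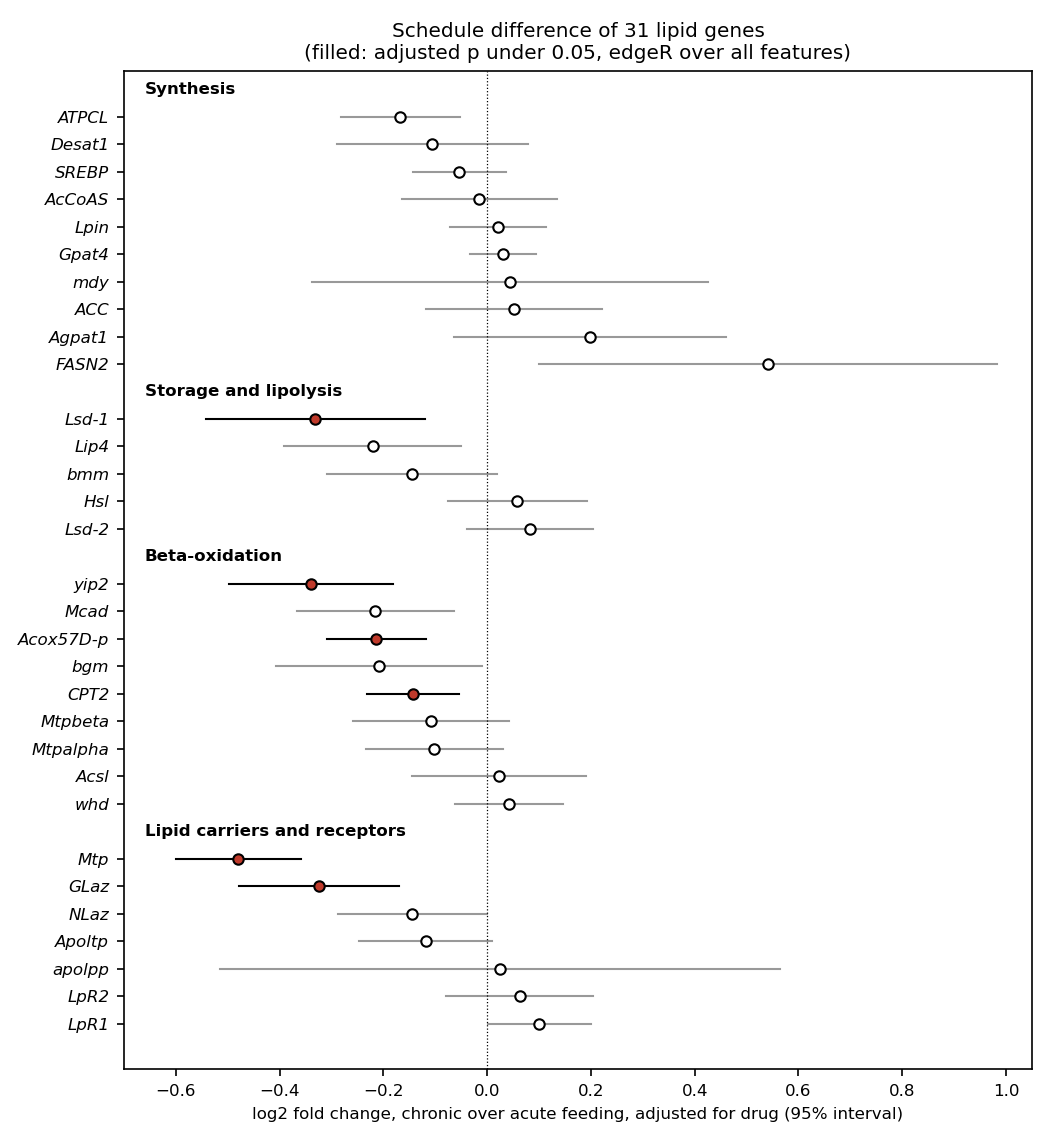
Log2 fold change of chronic over acute feeding for 31 lipid genes by class, adjusted for drug, with 95% intervals. Filled points are the 6 genes with an adjusted p under 0.05, all left of 0, from -0.48 for Mtp to -0.14 for CPT2.

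Markers of the fat body moved with the schedule too. Of 8 tested markers 6 were lower with chronic feeding and none higher, against 5.86% and 3.4% of all features. Among the 6 were the larval serum protein genes Lsp2 (log2 fold change -1.83) and Lsp1alpha (-2.19). The others were fit (-1.08), Amy-p (-0.99), Lsp1beta (-0.61) and Tsf1 (-0.50). The marker with the highest level, to (median 3595 CPM in acute pools), was not called (-0.21), nor was Fbp1 (-0.01). The summed level of the 10 markers in the table was 4114 to 11431 CPM (median 7079) in acute and 3419 to 8217 CPM (median 5230) in chronic pools, and none of the 10 was at 0 throughout. Among 5 neuronal and 6 glial markers none was called. Muscle markers had 2 of 5 called higher, photoreceptor markers 1 of 6 higher, haemocyte markers 1 of 6 lower, and gut markers 1 of 2 tested lower. The lower gut marker was the amylase gene Amy-d (-0.98). Amy-p of the fat body list is an amylase gene too, so their reads may be shared and 1 signal may count in both lists. The fall of Amy-p thus cannot be assigned to the fat body. Neither of 2 oenocyte markers was called. What these shifts contribute to the falls of the lipid genes was not tested.

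Feature length was also related to the difference. Across the 31 members, longer genes had higher log2 fold changes (Spearman's rho = 0.648), against 0.329 over 11268 features with a length. Genes are not independent replicates, and all of them share the same pools. The rank correlation of deviation with length in a pool ran from -0.655 to 0.414 in acute and from -0.379 to 0.455 in chronic pools, with medians of 0.0427 and 0.108. With that trend as a covariate, an alternative chosen after the data were seen, 7 members were called, all lower, including each of the 6.

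Among the carriers, Mtp showed the largest fall. Mtp (FBgn0266369; BDGP6, chromosome 2L, 20919094 to 20922876, minus strand) encodes the microsomal triglyceride transfer protein, which loads lipid onto lipophorin. Its level was 84.2 to 125 CPM (median 97.9) in acute and 49.2 to 94.8 CPM (median 73.4) in chronic pools. All 19 chronic pools lay below the acute median and all 20 acute pools above the chronic median. The log2 fold change was -0.48 (SE 0.06, adjusted p = 4.3e-07 in edgeR's quasi-likelihood test), a 1.39-fold fall. Mtp was called in each of the 39 fits that left out 1 pool.

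GLaz, the glial lipocalin related to apolipoprotein D (FBgn0033799; BDGP6, chromosome 2R, 13163959 to 13168032, minus strand), was at 47.8 to 94.2 CPM (median 58.5) in acute and 23.9 to 61.3 CPM (median 46.5) in chronic pools. Of the chronic pools 18 of 19 were below the acute median. Its extreme values, 94.2 and 23.9 CPM, came from acute DMSO replicate 5 and chronic DMSO replicate 4, both among the pools that stood apart. The log2 fold change was -0.32 (SE 0.08, adjusted p = 0.0036), and GLaz was also called without those pools. NLaz, the neural lipocalin, was at 75.3 to 168 CPM in acute and 70.7 to 109 CPM in chronic pools, and differed by -0.14 on the log2 scale (adjusted p = 0.222).

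The remaining 4 carriers were not called. LpR1 and LpR2, neighbouring lipophorin receptor genes of similar sequence on 3R whose reads may be shared, had log2 fold changes of 0.10 and 0.06. Apoltp, the lipid transfer particle that helps unload lipophorin, had -0.12. For apolpp the value was 0.02 with a 95% interval of -0.51 to 0.56, so that a fall as large as that of Mtp was within its error.

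Beta-oxidation held 3 called genes of 9, all lower, against 9.26% of all features called and 5.86% lower. Of its genes 7 of 9 were negative, with a median of -0.14, against 5292 of 11452 features. The beta-oxidation genes vary together over the pools and are not separate observations. yip2 (FBgn0040064; BDGP6, chromosome 2L, 9915253 to 9917220, plus strand) encodes a thiolase of the last step of the cycle. Its level was 147 to 301 CPM (median 211) in acute and 125 to 228 CPM (median 165) in chronic pools, and 18 of 19 chronic pools were below the acute median. The log2 fold change was -0.34 (SE 0.08, adjusted p = 0.0030).

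Acox57D-p (FBgn0034628; BDGP6, chromosome 2R, 21386309 to 21389276, plus strand) encodes a peroxisomal acyl-CoA oxidase, the first enzyme of the peroxisomal pathway. It was at 33.1 to 50.1 CPM (median 41.3) in acute and 29.2 to 42.8 CPM (median 35.6) in chronic pools, and 18 of 19 chronic pools were below the acute median. Its log2 fold change was -0.21 (SE 0.05, adjusted p = 0.0018). CPT2 (FBgn0035383; BDGP6, chromosome 3L, 2981022 to 2983551, plus strand) encodes carnitine palmitoyltransferase of the inner mitochondrial membrane. It was at 33.4 to 45.3 CPM (median 38.7) in acute and 28.2 to 39.8 CPM (median 35.6) in chronic pools, and its log2 fold change was -0.14 (SE 0.04, adjusted p = 0.033). The call for CPT2 was lost without any one of acute DMSO 4, acute 2-AAPA 5, chronic DMSO 5 or 6, or chronic 2-AAPA 1 or 6, with adjusted p of 0.0503 to 0.0556.

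Mcad had a log2 fold change of -0.22 (SE 0.07, adjusted p = 0.061). Of its chronic pools 15 of 19 were below the acute median, and 19 of 20 acute pools were above the chronic median. Mtpalpha and Mtpbeta, the subunits of the mitochondrial trifunctional protein, had -0.10 and -0.11, and bgm, an acyl-CoA synthetase of very long chains, had -0.21 (adjusted p = 0.199). The members with positive values were whd, the outer-membrane carnitine palmitoyltransferase, at 0.04, and Acsl, a long-chain acyl-CoA synthetase, at 0.02. The interval for whd was -0.06 to 0.15.

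In storage and lipolysis 1 of 5 tested genes was called, against 9.26% of all features, and 1 call among so few genes says little about the class. Lsd-1 (FBgn0039114; BDGP6, chromosome 3R, 23763857 to 23766662, plus strand) overlaps CG10214 on the other strand, and whether reads were counted by strand is not given in the sources used here. It was at 206 to 481 CPM (median 334) in acute and 135 to 362 CPM (median 257) in chronic pools. The log2 fold change was -0.33 (SE 0.10, adjusted p = 0.037). Of the chronic pools 15 of 19 were below the acute median. The call was lost in 13 of the 39 fits that left out 1 pool, with adjusted p of 0.0504 to 0.0625. Those pools were acute DMSO 4, acute 2-AAPA 2, 4, 5 and 6, acute mitoQ 3, chronic DMSO 5 and 6, chronic 2-AAPA 1, 2, 4 and 6, and chronic mitoQ 4.

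Lip4, a lipase gene, was at 47.9 to 79.7 CPM (median 63.8) in acute and 37.4 to 83.1 CPM (median 54.1) in chronic pools, and its log2 fold change was -0.22 (SE 0.08, adjusted p = 0.096). Its highest and its lowest pool were both chronic 2-AAPA pools. The triglyceride lipase gene bmm had -0.14 (adjusted p = 0.295), the hormone-sensitive lipase gene Hsl 0.06, and the second perilipin gene, Lsd-2, 0.08 (adjusted p = 0.443).

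None of the 10 tested synthesis genes was called, and their median log2 fold change was 0.03. FASN2 had the largest value of all members, 0.54 (SE 0.22, adjusted p = 0.120). It was 0.39 without chronic mitoQ replicate 5 and 0.99 with the left-out pool included. Its level was 3.21 to 13.0 CPM (median 5.0) in acute and 3.50 to 25.8 CPM (median 7.02) in chronic pools, with the chronic values spread widely around the acute ones. ATPCL, which makes cytosolic acetyl-CoA from citrate, was at 237 to 453 CPM (median 336) in acute and 263 to 392 CPM (median 300.5) in chronic pools. Its log2 fold change was -0.17 (SE 0.06, adjusted p = 0.056), and 16 of 19 chronic pools were below the acute median. ATPCL overlaps CG8320 and Tmem131 on the other strand.

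The other synthesis genes ran from -0.11 for Desat1 to 0.20 for Agpat1. ACC, which makes malonyl-CoA, had 0.05, AcCoAS -0.01, and the transcription factor gene SREBP -0.05. Lpin, a phosphatidate phosphatase, had 0.02, Gpat4 0.03, and mdy, the diacylglycerol acyltransferase that completes triacylglycerol, 0.04. The interval was narrow for Gpat4 (-0.03 to 0.09) and wide for mdy (-0.34 to 0.42).

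**Figure D3:**
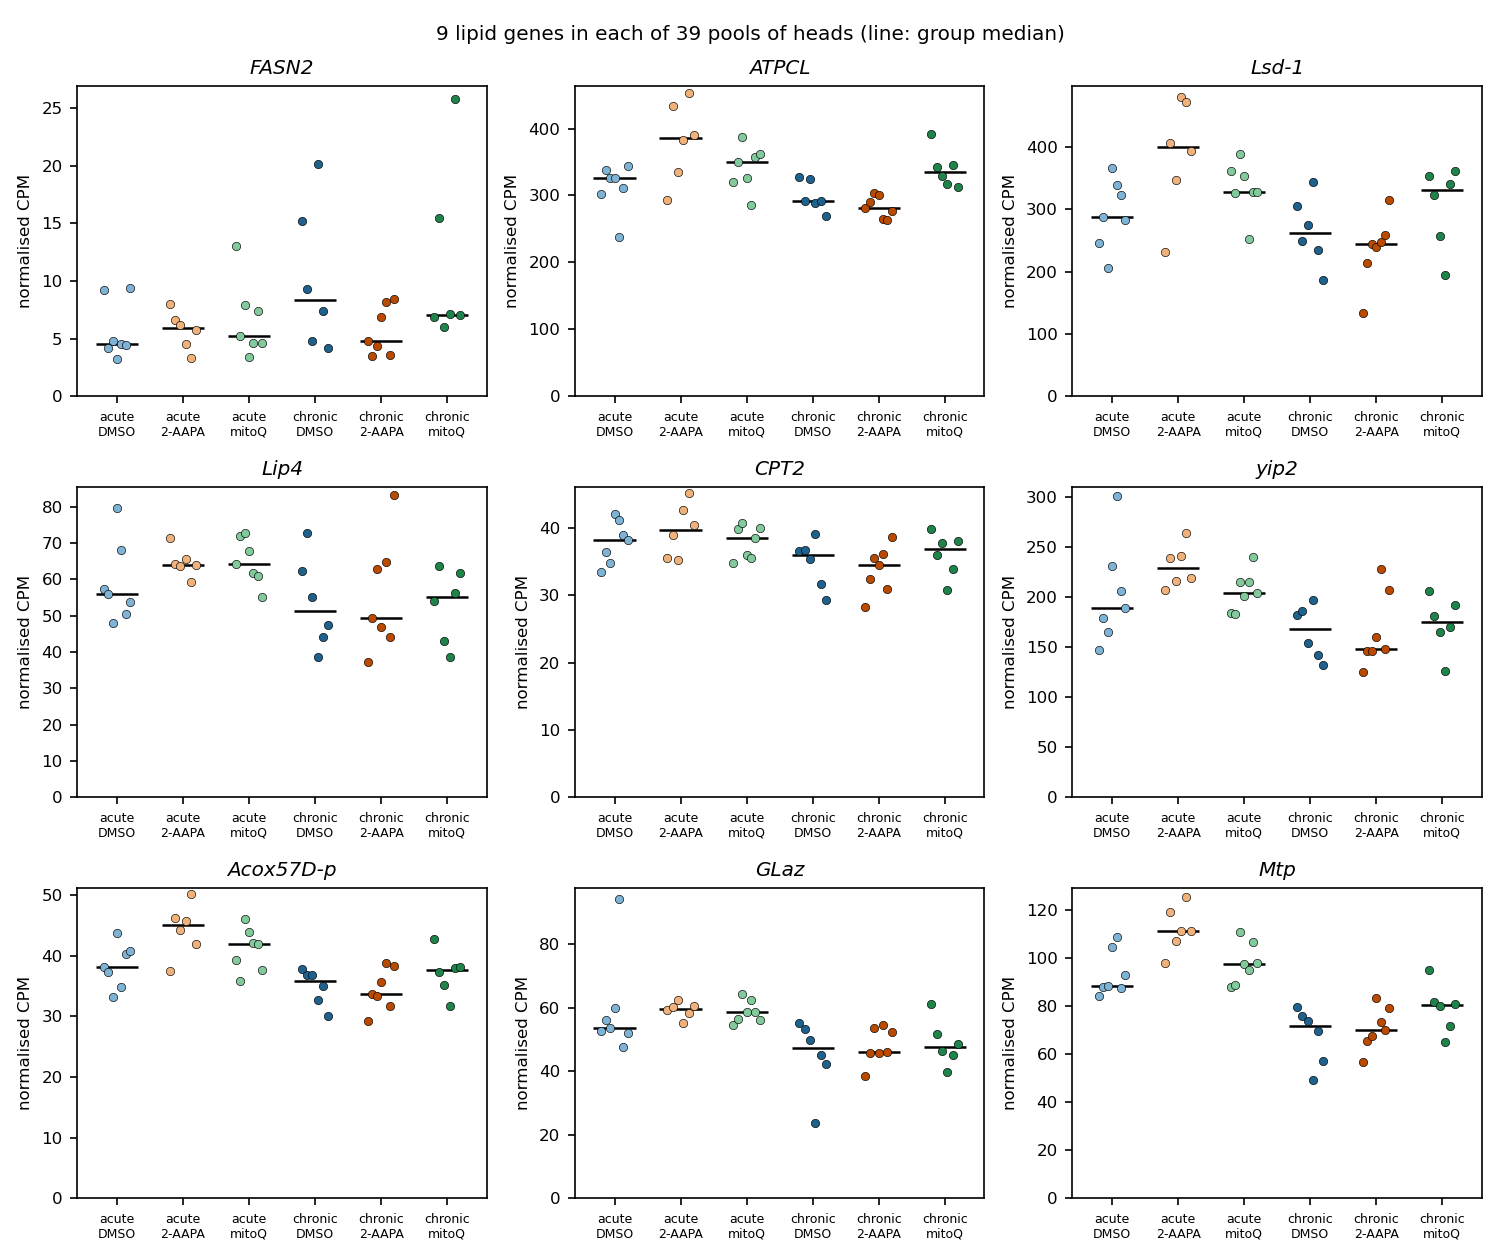
Normalised CPM of 9 lipid genes in each of 39 pools of heads, with each point a pool and each line a group median. The 3 chronic groups lie lower for Mtp, GLaz, yip2 and Acox57D-p, and for ATPCL and Lsd-1 the highest values are in the acute 2-AAPA group.

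The schedules were also compared within each drug, in a model of the 6 groups. With DMSO 1 of 31 members was called, against 1.2% of all features, 0.603% called higher and 0.594% called lower. This was Mtp, at 84.2 to 109 CPM (median 88.5) in acute and 49.2 to 79.6 CPM (median 71.7) in chronic pools. These groups did not overlap, as for 0.69% of features (0.297% with the chronic group lower), and the log2 fold change was -0.47 (SE 0.10, adjusted p = 0.0070). The call was lost when only the groups compared entered the fit, and without the 3 pools that stood apart. GLaz had -0.40 (adjusted p = 0.161), yip2 -0.29 (adjusted p = 0.422) and FASN2 0.83 (adjusted p = 0.367). Without acute DMSO replicate 5 the value was -0.26 for GLaz and -0.18 for yip2, without chronic DMSO replicate 4 it was 0.52 for FASN2, and without the 3 pools that stood apart it was -0.13 for GLaz.

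With 2-AAPA 5 of 31 members fell and none rose, against 4.92% of all features called with 3.8% called lower and 1.13% higher. Negative values were seen in 25 of 31 members, against 4715 of 11452 features, and in 9 of 9 beta-oxidation genes, which vary together over the pools and are not separate observations. Mtp was at 98.0 to 125 CPM (median 111) in acute and 56.5 to 83.2 CPM (median 69.9) in chronic pools, again without overlap, as for 2.77% of features (2.17% with the chronic group lower). Its log2 fold change was -0.66 (SE 0.10, adjusted p = 7.5e-05). The groups for GLaz did not overlap either, at 55.2 to 62.4 CPM and 38.4 to 54.4 CPM, although its adjusted p was 0.246 (log2 fold change -0.30).

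Lsd-1 was at 232 to 481 CPM (median 400) in acute and 135 to 316 CPM (median 244) in chronic 2-AAPA pools, and its log2 fold change was -0.72 (SE 0.17, adjusted p = 0.0066). ATPCL, at 293 to 453 CPM (median 386) and 263 to 303 CPM (median 281), fell by 0.43 on the log2 scale (SE 0.09, adjusted p = 0.0014). For both genes the groups overlapped only through the lowest acute pool.

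Acox57D-p was at 37.4 to 50.1 CPM (median 45.0) in acute and 29.2 to 38.9 CPM (median 33.7) in chronic 2-AAPA pools, and its log2 fold change was -0.36 (SE 0.08, adjusted p = 0.0027). yip2 was at 207 to 264 CPM (median 229) and 125 to 228 CPM (median 149), with -0.48 (SE 0.14, adjusted p = 0.030). Both genes overlapped at the edge of the ranges. Chronic 2-AAPA replicate 1 held the lowest value over the 39 pools in 11 of 31 members and acute 2-AAPA replicate 5 the highest in 8. Leaving out one or the other left 4 members called with 2-AAPA, with yip2 lost. Over all fits without 1 pool the count was 4 to 9, with 9 without acute 2-AAPA replicate 1, and it was 12 with surrogate variables. Summed fat body markers had medians of 8403 and 5382 CPM in these groups, 6753 and 4880 CPM with DMSO, and 6760 and 5614 CPM with mitoQ, and their part in the differences was not tested.

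With mitoQ none of the 31 members was called in edgeR's test, against 0.148% of all features, and 2 had an unadjusted p under 0.05. DESeq2 called 0 as well. Mtp was at 88.1 to 111 CPM (median 97.3) in acute and 64.9 to 94.8 CPM (median 80.5) in chronic pools, with overlap, and its log2 fold change was -0.31 (SE 0.10, adjusted p = 0.334). FASN2 had 0.79 (adjusted p = 0.80), and 0.35 without chronic mitoQ replicate 5, its highest pool (25.8 CPM). The median over the members was 0.01.

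Whether the schedule difference itself differed among the drugs was tested with an interaction term. No member was called, and none of the features was (0%). By edgeR 6 members had an unadjusted p under 0.05, and DESeq2 also called 0 members. The smallest adjusted p among the members was 0.551, for ATPCL, whose schedule difference was -0.06 with DMSO, -0.43 with 2-AAPA and -0.01 with mitoQ. For Lsd-1 the values were -0.14, -0.72 and -0.13 (adjusted p = 0.9997). The larger number of calls with 2-AAPA is thus not shown to be particular to that drug.

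**Figure D4:**
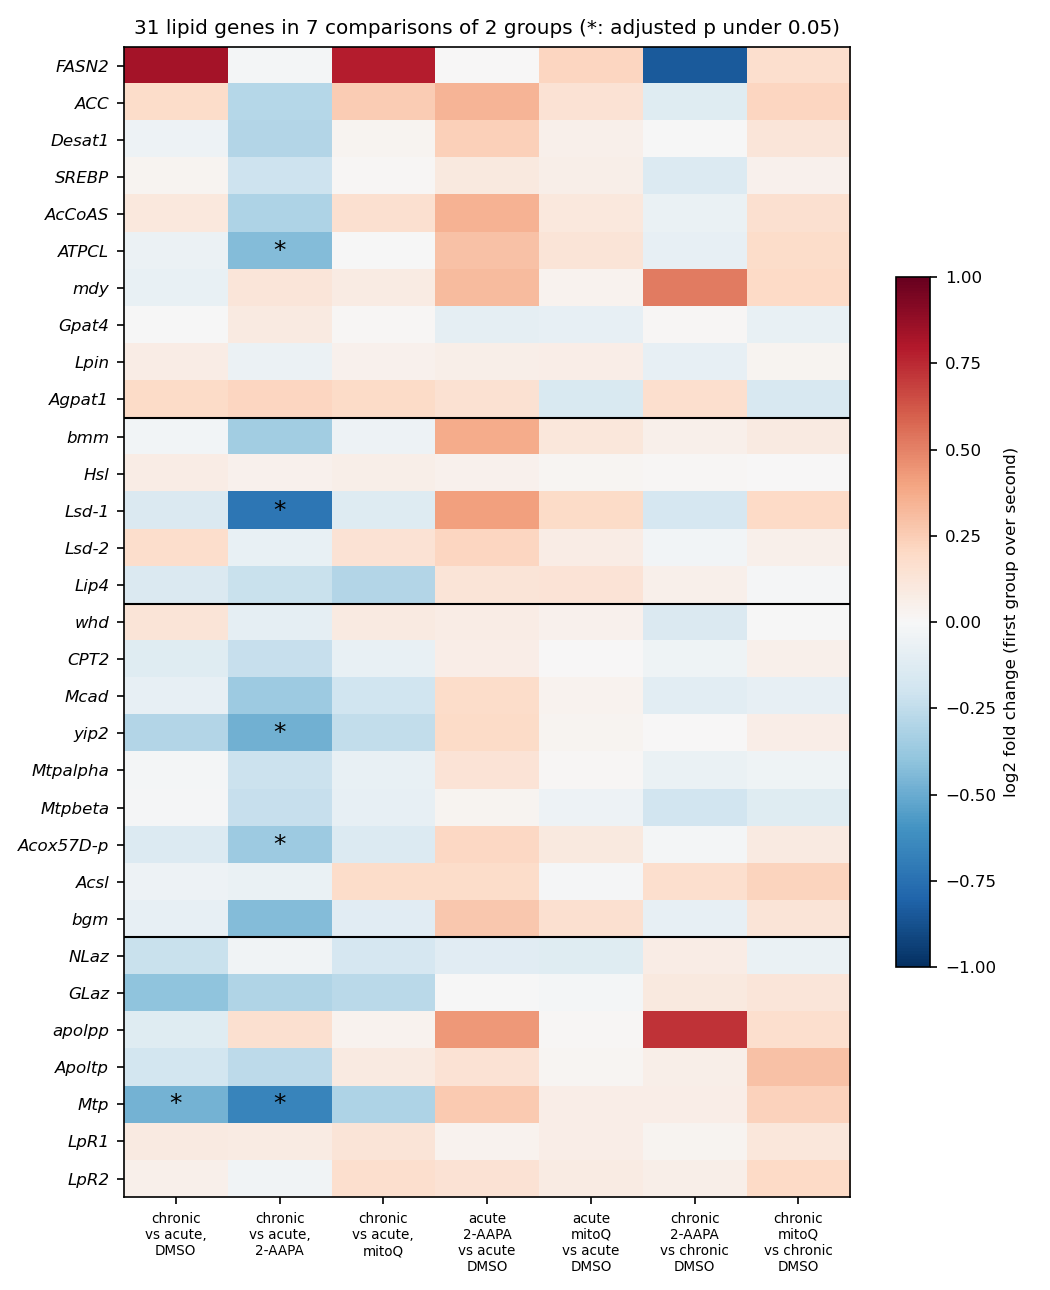
Log2 fold changes of 31 lipid genes (rows, by class) in 7 comparisons of 2 groups (columns), on a scale from -1 to 1, with stars at an adjusted p under 0.05. The 6 stars are Mtp with DMSO and Mtp, ATPCL, Lsd-1, yip2 and Acox57D-p with 2-AAPA, all for lower levels with chronic feeding.

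Drug effects on these genes did not pass the test in either schedule. The test among the 3 drugs called 0 of 31 members and 0% of all features, with no member under an unadjusted p of 0.05 in edgeR and none called by DESeq2. The comparisons below share pools with the schedule comparison. The acute ones also share their DMSO pools with each other, as do the chronic ones.

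Acute 2-AAPA against acute DMSO called no member, against 0.0262% of features, and DESeq2 called 0. Values were positive in 28 of 31 members and in 5991 of 11452 features, with median log2 fold changes of 0.15 and 0.01. An unadjusted p under 0.05 was found for 8 members and 704 features. Summed markers had medians of 6753 CPM with DMSO and 8403 CPM with 2-AAPA for the fat body, and of 111 and 184 CPM for the gut, and their part in these differences was not tested. The smallest adjusted p was 0.469, for ATPCL, with medians of 326 CPM with DMSO and 386 CPM with 2-AAPA and a log2 fold change of 0.29 (SE 0.09). AcCoAS had 0.35 (SE 0.12), ACC 0.34 (SE 0.13), Lsd-1 0.41 (SE 0.17), bmm 0.37 (SE 0.14), Mtp 0.26 (SE 0.10), Lsd-2 0.22 (SE 0.10) and Acox57D-p 0.21 (SE 0.08). Their intervals leave room for differences from near 0 to 0.75. The same acute 2-AAPA pools are the reference of the schedule comparison with 2-AAPA, in which 25 of 31 members were negative. Higher levels in these pools would move both comparisons in those directions, so the comparisons are not separate observations.

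Acute mitoQ against acute DMSO gave no call among members or features (0%), and no member had an unadjusted p under 0.05 in edgeR. DESeq2 called 0 members. Log2 fold changes lay between -0.15 and 0.21, and the median 95% interval reached 0.24 to either side. Chronic 2-AAPA against chronic DMSO likewise called 0 members and 0% of features in edgeR, and DESeq2 called 0 members. Of the genes called with 2-AAPA between schedules, ATPCL had -0.08 here, Lsd-1 -0.17, Acox57D-p -0.02 and yip2 0.0009. FASN2 alone had an unadjusted p under 0.05, at -0.84 on the log2 scale (SE 0.37, adjusted p = 0.760) and levels of 4.16 to 20.1 CPM with DMSO and 3.50 to 8.47 CPM with 2-AAPA. Without chronic DMSO replicate 4, the pool at 20.1 CPM, it had -0.56. All 7 carriers were positive there, as were 6277 of 11452 features, from 0.03 to 0.72. The largest value was that of apolpp, with an interval of -0.25 to 1.69, and it was 0.47 without chronic DMSO replicate 4.

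Chronic mitoQ against chronic DMSO also called no member and 0% of features in edgeR, nor did DESeq2 call a member. The 3 members with an unadjusted p under 0.05 were Apoltp (0.29, SE 0.11), Mtp (0.23, SE 0.10) and ATPCL (0.19, SE 0.09), each with an adjusted p of 0.9995. Mtp stood at 49.2 to 79.6 CPM with DMSO and 64.9 to 94.8 CPM with mitoQ.

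The members with the largest ratio of highest to lowest level were apolpp and mdy, which were singled out after their values were seen. By the coefficient of variation FASN2 was first (63.9%, against 50.9% for apolpp and 36.4% for mdy). apolpp ran from 125 to 4057 CPM, a 32.5-fold range, and mdy from 7.61 to 90.5 CPM, an 11.9-fold range. Both had their lowest value in chronic DMSO replicate 4, the pool with the lowest ribosomal RNA share. Without that pool apolpp ran from 526 to 4057 CPM (7.71-fold) and mdy from 23.4 to 90.5 CPM (3.87-fold), below the 8.05-fold range of FASN2. Within groups the log2 deviations of apolpp and mdy moved together (Pearson's r = 0.981, Spearman's rho = 0.964, 39 pools), and r was 0.970 without the pair of pools farthest from the median. This pair was the highest of 465, and it is given as a description with no test. Deviations of both genes also followed the ribosomal RNA share of the pool (r = 0.658 for apolpp and 0.657 for mdy), whereas SREBP went the other way (r = -0.689). Spearman's rho was lower in size, at 0.532, 0.510 and -0.560. These values include chronic DMSO replicate 4, which was lowest in that share and in apolpp and mdy. The part of that share in the spread was not tested. Both genes overlap other genes on the opposite strand, apolpp with Zyx and mdy with Cse1 and CG13280.

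**Figure D5:**
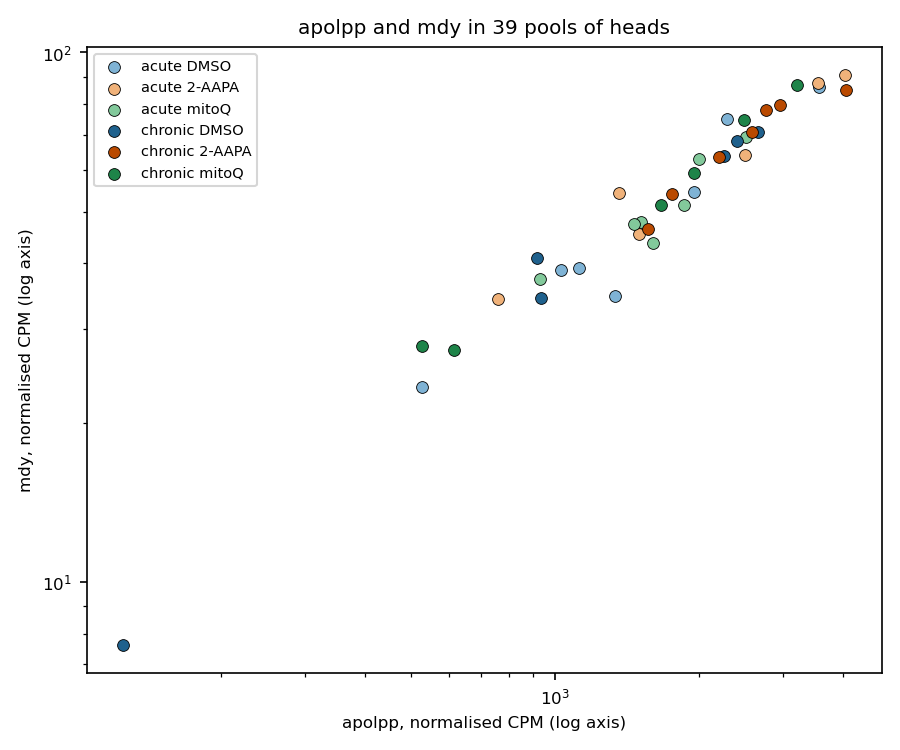
Normalised CPM of apolpp (x) and mdy (y) in 39 pools of heads, both on log axes, coloured by group. Points of all 6 groups lie along 1 diagonal, with chronic DMSO replicate 4 at the lower left (125 and 7.61 CPM).

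Further pairs are again given as a description, over pools that share library preparation and scaling. Mtpalpha and Mtpbeta, whose products form 1 enzyme complex, had r = 0.944, Mcad and yip2 0.910, and ACC and AcCoAS 0.883, while Desat1 and whd, of different classes, had 0.867. The median r was 0.605 over the 36 pairs of beta-oxidation genes, 0.443 over the 10 pairs of storage genes, 0.227 over the 45 pairs of synthesis genes, 0.165 over the 21 pairs of carriers, and 0.282 over the 353 pairs between classes, so that pairs of synthesis genes and of carriers correlated less than pairs between classes. LpR1 and LpR2 had r = 0.851, which dropped to 0.651 without the pair of pools farthest from the median. In acute DMSO replicate 5, whose deviations fell with feature length over all features (rho = -0.655), 6 members had their lowest value of the 39 pools and 4 their highest. The low ones included LpR1 (87.6 CPM), LpR2 (41.3 CPM) and ACC (405 CPM), which have long transcripts, and the high ones GLaz (94.2 CPM) and NLaz (168 CPM), which have short ones.

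The wider lipid pathways were described with 95 further genes, of which 80 were tested. Between schedules 12 were called, 5 higher and 7 lower, which is 15% against the 9.26% of all features. Regulators held 2 higher of 14, sug, a sugar-responsive transcription factor gene (log2 fold change 0.70, SE 0.09, adjusted p = 1.0e-06), and the nuclear receptor gene Hnf4 (0.19). Synthesis held 3 higher and 1 lower of 21, with Gpdh1, the glycerol-3-phosphate dehydrogenase gene (0.22), and bond, a fatty acid elongase gene (0.18), higher and the acyltransferase gene Agpat4 (-0.23) lower.

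Of 18 further beta-oxidation genes 3 were called lower and none higher, against 5.86% and 3.4% of all features. Negative values were found in 15 of 18, against 5292 of 11452 features. Genes measured in the same pools are not separate observations. The 3 called were Acbp2, an acyl-CoA binding protein gene (-0.63, SE 0.11), CG3902, a predicted acyl-CoA dehydrogenase gene (-0.41, SE 0.07), and CRAT, a carnitine acetyltransferase gene (-0.18, SE 0.05). CG5966, a predicted lipase gene, was the 1 called of 12 storage genes (-0.66, SE 0.15). The fatty acid binding protein gene fabp (-0.24) and cv-d, a gene of the vitellogenin-like lipid carriers (-0.23), were the 2 called of 15 carriers and receptors. With 2-AAPA 7 of the 80 were called between schedules, 1 higher (sug, 0.89) and 6 lower, which is 8.75% against 4.92% of all features. The lower ones were the lipase gene Lip1 (-2.04), the phospholipase gene PAPLA1 (-0.32), the beta-oxidation genes Acbp2 (-0.75), CG3902 (-0.70) and Arc42 (-0.44), and cv-d (-0.44). Among the 12 storage genes, Lip1 included, the lowest value between schedules was -0.67 with DMSO and -0.69 with mitoQ. In acute 2-AAPA against acute DMSO their highest value was 2.09, with 0 called, and those acute pools enter both comparisons. With DMSO or mitoQ edgeR called 0 of the 80 between schedules, with 15 and 8 under an unadjusted p of 0.05.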

How the data were processed

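The authors ran the nf-core RNA-seq pipeline (version 3.10.1) on poly-A reads from a directional kit, mapping to BDGP6, allowing up to 500 locations per read and clipping 12 bases, counted reads per gene with featureCounts and per transposable element with TEcount, and deposited whole-number counts without normalization. Tool versions and the strand setting of counting are not given in the sources used here. Multimapped reads can blur similar genes. From these counts, edgeR 4.0.16 (R 4.3.3) was run with TMM scaling, filterByExpr on the 6 groups and a robust quasi-likelihood fit. Schedule and drug were tested in an additive model, and the comparisons of 2 groups and the interaction in a 6-group model, with Benjamini-Hochberg adjustment over 11452 features and a threshold of 0.05. The SE is the log2 fold change over the square root of F. Groups come from the sample labels. Gene positions were looked up in Ensembl's BDGP6 annotation, in which all 32 members matched. Total counts of 24318573 to 30104079 gave a common biological coefficient of variation of 0.224. The scripts were tested on simulated data. Members, lists, markers and tests were chosen with earlier results of these data known. Values by sample are given for members called in any test and, in each class with fewer than 2 calls between schedules, for the 2 with the smallest p. Of wider lists at most the 3 largest called changes per list are named. Alternatives were all 40 samples, DESeq2 size factors, no count filter, DESeq2 1.42.0, the replicate block, surrogate variables (sva 3.50.0), limma 3.58.1 after cyclic LOESS, fits of the groups compared alone, and each sample left out. Added after seeing the data were fits without 3 samples that stand apart, and with the ribosomal RNA share or the length trend as a covariate.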

Additional observations from a re-analysis of the deposited data

Results flagged for a closer look

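Over 54 sets of values of the 9 genes described by group, 4 had a pool far from the rest of its group, where chance gives about 1 in 20 (5%). ATPCL was at 237 CPM in acute DMSO replicate 5, against 302 to 343 CPM in the other 6 pools. GLaz was at 94.2 CPM in that pool, against 47.8 to 59.8 CPM, and the pool also had the lowest scaling factor. GLaz was at 23.9 CPM in chronic DMSO replicate 4, against 42.4 to 55.1 CPM, and this pool had the lowest ribosomal RNA share. Lsd-1 was at 252 CPM in acute mitoQ replicate 5, against 327 to 389 CPM in the rest of its group.

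Chronic DMSO replicate 7, the pool left out of every comparison, stood outside the 39 others in 2 members, on a scaling that included it. FASN2 was at 114 CPM (3145 counts) there, against 3.27 to 26.4 CPM in the others. The lipase gene mag was at 4.58 CPM (126 counts), against 0 to 0.200 CPM. In the same pool the summed oenocyte markers were at 2020 CPM, against at most 431 CPM, and male reproductive tract markers at 783 CPM, against at most 0.702 CPM. The part of these in the levels of FASN2 and mag was not tested.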

How the results depend on the processing

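Across 39 fits with 1 sample left out and 10 other settings, no log2 fold change of the 9 genes described by group changed sign. Mtp, yip2, Acox57D-p and GLaz were called between schedules in all of them. The number of members called between schedules was 6, between 4 and 8 with 1 sample left out, and 12 with surrogate variables. That last setting called 2391 features, 45.2% of them lower, where the split was 389 higher and 671 lower without it. With DMSO the number was 1, and it was 2 with all 40 samples, 0 with only the 2 groups compared and 0 without 3 samples that stand apart. With 2-AAPA it was 5, and it was 12 with surrogate variables, 8 without 3 samples that stand apart, and 4 to 9 with 1 sample left out, with 9 without acute 2-AAPA replicate 1. Chronic 2-AAPA against chronic DMSO called 0 members, and 1 (FASN2) with all 40 samples. The cause of these shifts was not tested. ATPCL was called between schedules in 11 of the 39 fits and 7 of the 10 other settings (adjusted p 0.0027 to 0.0889), and Lip4 in 2 of the 39 (without chronic DMSO replicate 2 or chronic 2-AAPA replicate 7). Mcad, not called in the main fit either, was called in 10 of the 39 and 6 of the 10. Replicate numbers were not taken as pairs, since the labels give them no shared source. The deviations of same-numbered samples correlated at -0.63 to 0.624 (median -0.0337, 93 pairs), against a median of -0.014 for different numbers. Length trends in replicates 4 and 5 were -0.289 and -0.655 in acute DMSO and -0.352 and -0.58 in acute mitoQ. In acute 2-AAPA they were 0.295 and 0.414. Whether samples of 1 number shared a batch in some groups was not tested, and a median over all groups cannot show it. Of 39 samples 11 correlated best with one of their own number. The replicate block left 4 members called between schedules, with Lsd-1 (adjusted p = 0.0628) and CPT2 (0.0563) lost. The median 95% interval of a member between 2 groups reached about 0.25 to either side on the log2 scale, and the width differed between members.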
